A study of Mus musculus with 4 samples.

Results

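The solute carriers are the genes whose symbol has the form Slc, a family number, a letter and a member number, and 116 of the 6352 transcripts in the deposited table met that form, with the cystine exchanger gene Slc7a11 left out. Each of the 116 is a different gene. By textbook location, 66 encode plasma membrane carriers, 5 encode carriers of synaptic vesicles and 15 belong to the mitochondrial Slc25 family. Another 26 act in other organelles or have no settled location, and 4 are named after a carrier but encode no carrier (Slc7a6os, Slc4a1ap, Slc9a3r1 and Slc9a3r2). Slc25a17 was kept with its family although it is known as a peroxisomal carrier.

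Solute carriers move amino acids, sugars, ions, metals, nucleotides and neurotransmitters across membranes without spending ATP themselves, and many draw on the sodium gradient that the Na/K-ATPase builds. In the cortex, plasma membrane members of the Slc1 and Slc6 families clear glutamate and GABA from the synapse, and vesicular members, driven by the proton gradient of the V-ATPase, load these transmitters into vesicles for release. The Slc25 carriers exchange phosphate, nucleotides and amino acids between cytosol and mitochondrial matrix.

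Ribosome profiling (Ribo-seq) counted the footprints at translation initiation sites in primary cultured cortical neurons of mice, WT or Ltn1 KO. LTN1 is an E3 ubiquitin ligase that marks nascent chains on stalled ribosomes for degradation. All neurons had received RNAi, scrambled or against Ttc3 (an E3 ligase gene), and all were exposed to harringtonine, which holds ribosomes at start codons, at 5 µg/ml for 3 min. There was 1 library per combination of genotype and RNAi, so that no value below has a replicate, and neither the deleted part of Ltn1 nor the age of the cultures is given for these libraries in the sources used here.

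By their titles, WTTTC and LTNTTC (Ltn1 KO) received scrambled RNAi and WTSC and LTNSC (Ltn1 KO) received Ttc3 RNAi, but the letters of these codes read the other way round. The libraries are called by their codes for this reason. KO and WT were compared within the SC pair (WTSC and LTNSC, Ttc3 RNAi by title) and the TTC pair (WTTTC and LTNTTC, scrambled RNAi by title), side by side. The libraries held between 1460425 and 3655827 reads, so that 1 read was worth 0.274 to 0.685 RPM (reads normalized to the total of the library). Ltn1 itself had 10 reads in WTSC, 2 in WTTTC, 37 in LTNSC and 0 in LTNTTC. The library labelled LTNSC thus held most of them, and a start site outside the deleted part would check nothing, so that KO and WT stand below for the labels. Ttc3 had 0 to 3 reads in every library, too few to check the RNAi. The neuronal markers Tubb3, Snap25, Map2, Stmn2 and Syt1 were measured at 63.5 RPM or more in every library, Rbfox3 lay between 1.43 and 9.59 RPM, and none of the 6 microglial markers searched for was among the rows used here.

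Footprints at these start sites were sparse. Of the 116 genes, 66 had reads in all 4 libraries, 50 had none in at least 1, and Slc12a2, Slc16a3, Slc35a5, Slc35b2, Slc44a2 and Slc5a3 had none anywhere. At 3 reads as the limit that a count of 0 allows, such a site may still have held up to 0.821 RPM in LTNTTC and up to 2.05 RPM in WTTTC. A mean of at least 5 RPM over the 4 libraries was reached by 38 genes, 23 of the plasma membrane, 3 vesicular, 6 of Slc25, 5 other intracellular ones and Slc7a6os. Another 35 had a mean under 1 RPM. The bases counted around each start codon are not given in the sources used here, so that a value is compared between libraries for the same gene and not between genes.

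**Figure D1:**
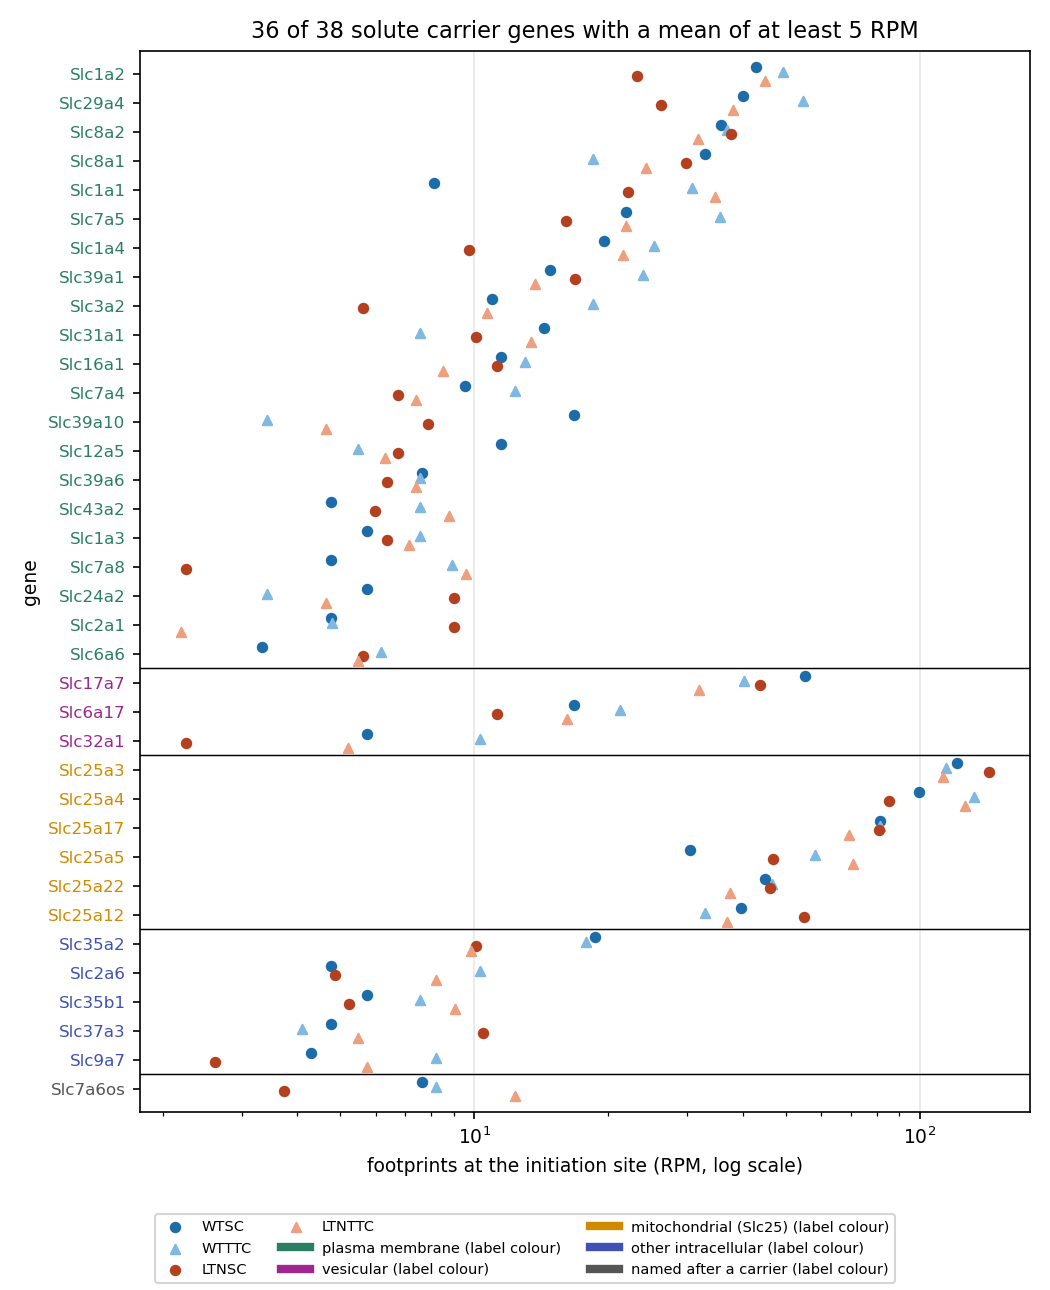
Footprints at the initiation site in RPM (log scale) of 36 of the 38 solute carrier genes with a mean of at least 5 RPM, with 1 point per library, circles for SC, triangles for TTC, blue for WT and red for KO, and gene names coloured by class. For 10 of the genes shown both red points lie left of both blue points, and for 12 both triangles lie right of both circles.

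The vesicular carriers were lower in KO than in WT as a sum. Their 5 sites together held 77.8 RPM (95% Poisson interval 66.3 to 90.7) in WTSC, 78.7 RPM (65.0 to 94.5) in WTTTC, 57.2 RPM (48.5 to 67.1) in LTNSC and 56.9 RPM (49.4 to 65.2) in LTNTTC. Both KO sums lay below both WT sums, although the intervals overlapped in part. These intervals, and all intervals and read tests below, cover counting error only. A lower level may come from fewer cells of a type or from less initiation per cell, which cannot be told apart in bulk libraries.

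Slc17a7 (ENSMUST00000085374.6, chromosome 7, 45163921 to 45176139 in GRCm38) encodes VGLUT1, which loads glutamate into vesicles. It had 116 reads (55.3 RPM) in WTSC, 59 (40.4 RPM) in WTTTC, 117 (43.8 RPM) in LTNSC and 117 (32.0 RPM) in LTNTTC. Its level was lower in KO than in WT within each pair by the same amount, -0.33 on the log2(RPM + 1) scale in both, and neither difference passed the read test (adjusted p = 0.331 for the SC pair, 0.487 for the TTC pair, two-sided exact binomial test on reads, adjusted over all transcripts with reads). The TTC library was also lower than the SC library within each genotype, by -0.44 in both, so that LTNSC lay between the WT libraries (adjusted p = 0.0872 in KO and 0.243 in WT, exact binomial test).

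Slc32a1, which encodes VGAT, the vesicular carrier of GABA and glycine, had 12 reads (5.73 RPM) in WTSC, 15 (10.3 RPM) in WTTTC, 6 (2.25 RPM) in LTNSC and 19 (5.2 RPM) in LTNTTC. Both KO libraries lay below both WT libraries. The SC pair differed by -1.05 (KO at 0.392 of WT, 95% interval 0.121 to 1.13) and the TTC pair by -0.86 (0.506, 0.244 to 1.07), with adjusted p = 0.287 and 0.282 in the exact binomial test. Slc6a17, which encodes the vesicular carrier of neutral amino acids NTT4, had the same order, with 16.7 RPM in WTSC, 21.2 RPM in WTTTC, 11.2 RPM in LTNSC and 16.1 RPM in LTNTTC, and passed in neither pair (adjusted p = 0.439 and 0.609, exact binomial test).

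The other vesicular genes were near the detection limit. Slc17a6, which encodes VGLUT2, had 10 reads (6.85 RPM) in WTTTC and 7 (1.92 RPM) in LTNTTC, and 0 in both SC libraries. With 3 reads in place of 0, WTTTC was 4.78-fold higher than WTSC (adjusted p = 0.00315, exact binomial test). In the same way LTNTTC was 1.71-fold higher than LTNSC, which did not pass (adjusted p = 0.111, exact binomial test). These folds leave out the counting error of the library with reads. Slc30a3, the zinc carrier of glutamatergic vesicles, had 6 reads in LTNTTC and 0 in the others. Without Slc17a7 the vesicular sum was 22.4 RPM in WTSC, 38.4 in WTTTC, 13.5 in LTNSC and 24.9 in LTNTTC, and LTNTTC lay above WTSC.

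**Figure D2:**
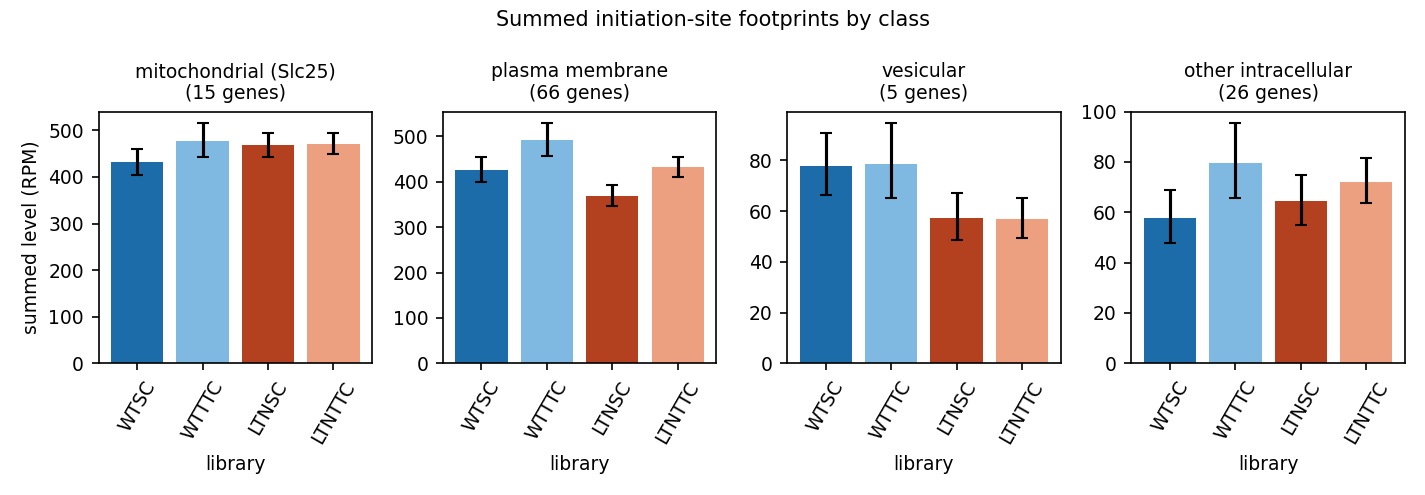
Summed initiation-site footprints in RPM of each class of solute carrier in the 4 libraries, with 95% Poisson intervals as error bars. The vesicular sums were 77.8 and 78.7 RPM in the WT libraries and 57.2 and 56.9 RPM in the KO libraries, whereas the Slc25 sums lay between 431.3 and 477.9 RPM.

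The V-ATPase subunits, which acidify the vesicles, differed in both directions. Of 16 subunits listed, 12 were measured, and their summed level was 752.3 RPM in WTSC, 594.3 in WTTTC, 672.3 in LTNSC and 656.8 in LTNTTC. In the SC pair 7 of the 12 were lower in KO and 5 higher, and in the TTC pair 4 were lower and 8 higher. By the read test 3 subunits were lower in the SC pair (4.74% of all transcripts), Atp6v1b2 (adjusted p = 2.15e-08), Atp6v0d1 (0.00345) and Atp6v1a (0.0193, exact binomial tests). In the TTC pair Atp6v1a was again lower (0.022, beside 4.41% of all transcripts) and Atp6v1c1 was higher (0.00213, beside 3.14%, exact binomial tests). All 12 had a mean of at least 5 RPM, whereas these shares of all transcripts cover sparse sites as well. By the 2-fold rule at 5 RPM, 0 of the 12 passed in the SC pair (9.81% of all transcripts). In the TTC pair Atp6v1c1 alone passed that rule, as higher (5.27% of all transcripts). Atp6v1a, a catalytic subunit, had 59.2 RPM in WTSC, 54.8 in WTTTC, 37.8 in LTNSC and 33.9 in LTNTTC, and its genotypes did not overlap.

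At the plasma membrane the summed level over 66 genes was 426.0 RPM (398.5 to 454.9) in WTSC, 491.0 (455.7 to 528.2) in WTTTC, 368.9 (346.2 to 392.6) in LTNSC and 432.5 (411.4 to 454.3) in LTNTTC. KO was lower than WT within each pair, and the order of the libraries put WTSC and LTNTTC side by side. Within this class, the glutamate carriers Slc1a1 and Slc1a2 differed in opposite directions between KO and WT in the SC pair, and neither passed in the TTC pair.

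Slc1a1 (chromosome 19, 28835135 to 28913960) encodes EAAC1, the glutamate and cysteine carrier of neurons. It had 17 reads (8.11 RPM, 4.72 to 13) in WTSC, 45 (30.8 RPM, 22.5 to 41.2) in WTTTC, 59 (22.1 RPM, 16.8 to 28.5) in LTNSC and 127 (34.7 RPM, 29.0 to 41.3) in LTNTTC. WTSC stood alone at the bottom and the other libraries lay within 22.1 to 34.7 RPM. In the SC pair KO was 2.72-fold higher (95% interval 1.57 to 4.98, adjusted p = 0.004, exact binomial test), and in the TTC pair it was 1.13-fold higher (0.797 to 1.62, adjusted p = 0.878). The difference between the pairs was itself tested and did not pass (adjusted p = 0.0982, exact noncentral hypergeometric test).

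Slc1a2 (chromosome 2, 102658239 to 102790784) encodes GLT-1, the carrier that takes up most synaptic glutamate and is made mainly by astrocytes. It had 90 reads (42.9 RPM) in WTSC, 72 (49.3 RPM) in WTTTC, 62 (23.2 RPM) in LTNSC and 164 (44.9 RPM) in LTNTTC. Here LTNSC stood alone at the bottom. KO was 1.85-fold lower than WT in the SC pair (ratio 0.540, 0.384 to 0.755, adjusted p = 0.00651, exact binomial test) and 1.10-fold lower in the TTC pair (0.910, 0.686 to 1.22, adjusted p = 0.861), and the difference between the pairs did not pass (adjusted p = 0.199, exact noncentral hypergeometric test).

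Some astrocyte markers were lower beside Slc1a2. Gfap had 18.1 RPM in WTSC, 19.2 in WTTTC, 1.87 in LTNSC and 7.11 in LTNTTC, and was lower in KO by the read test in both pairs (adjusted p = 6.35e-07 and 0.0107, exact binomial test). Aldoc was also lower in both pairs (adjusted p = 5.05e-04 and 0.0114, exact binomial test). In the SC pair 4 of the 7 measured of 8 listed were lower, Gfap, Aldoc, Aldh1l1 and Slc1a2 itself. Another 2 were higher, Slc1a3 and Gja1 (0 reads in WTSC and 3 in LTNSC), and Aqp4 had 0 reads in both libraries. Over the 7, Slc1a2 and Slc1a3 included and Aldoc giving the most, the summed level was 191.8 RPM in WTSC, 229.4 in WTTTC, 113.0 in LTNSC and 173.1 in LTNTTC, and the part of these cells in the Slc1a2 result was not tested. Slc1a3, which encodes the other astrocytic glutamate carrier GLAST, had 12, 11, 17 and 26 reads (5.73, 7.53, 6.36 and 7.11 RPM) in WTSC, WTTTC, LTNSC and LTNTTC, and no pair separated (adjusted p = 1 in both, exact binomial test). Slc1a4, a neutral amino acid exchanger of the same family, had 19.6, 25.3, 9.73 and 21.6 RPM in that order, with LTNSC again lowest (adjusted p = 0.0748 in the SC pair, exact binomial test).

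The GABA carrier Slc6a11, which encodes the mainly astrocytic GAT-3, had 2, 6, 10 and 35 reads in WTSC, WTTTC, LTNSC and LTNTTC, with KO at 3.92 times WT in the SC pair (0.836 to 36.8) and 2.33 times in the TTC pair (0.970 to 6.78), intervals that both held 1. The taurine carrier Slc6a6 stayed within 3.34 to 6.16 RPM, and the glycine carrier Slc6a9 had at most 1 read per library.

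**Figure D3:**
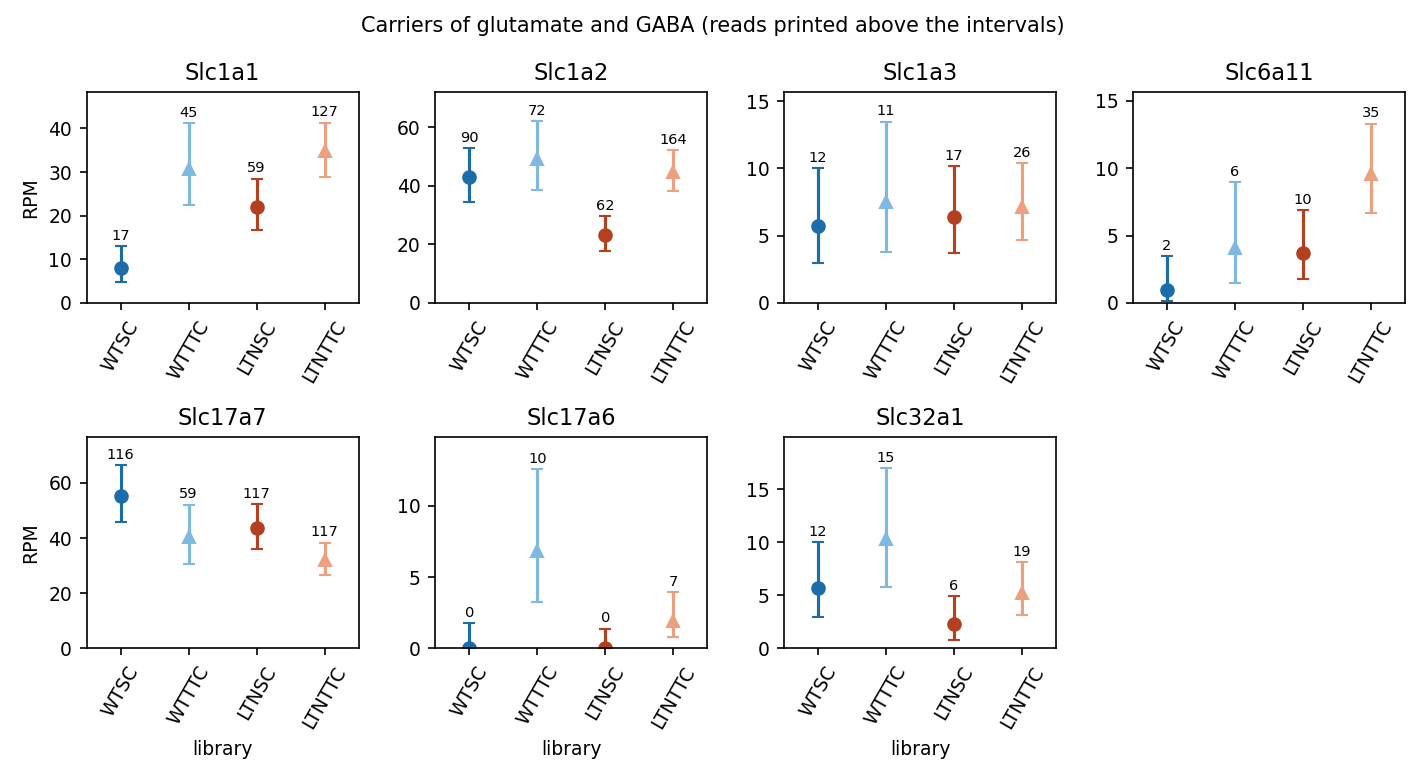
Levels in RPM of 7 carriers of glutamate and GABA in the 4 libraries, with 95% Poisson intervals and the reads printed above them. Slc1a1 is lowest in WTSC at 8.11 RPM, Slc1a2 is lowest in LTNSC at 23.2 RPM, and Slc17a6 has reads in the TTC libraries alone.

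The large neutral amino acid exchanger is made of a light chain, encoded by Slc7a5 (LAT1), and a heavy chain, encoded by Slc3a2 (4F2hc). Slc7a5 had 46 reads (21.9 RPM) in WTSC, 52 (35.6 RPM) in WTTTC, 43 (16.1 RPM) in LTNSC and 80 (21.9 RPM) in LTNTTC. Slc3a2 had 23 (11 RPM), 27 (18.5 RPM), 15 (5.61 RPM) and 39 (10.7 RPM) in the same order. For both chains KO was lower than WT in each pair, by -0.43 and -0.68 for Slc7a5 and by -0.86 and -0.74 for Slc3a2, and none of these passed (adjusted p between 0.0743 and 0.494, exact binomial test). LTNTTC came close to WTSC for both chains.

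Several further carriers had both KO libraries below both WT libraries without a call. Slc29a4, which encodes PMAT, a carrier of monoamines, had 40.1 RPM in WTSC, 54.8 in WTTTC, 26.2 in LTNSC and 38.0 in LTNTTC, a KO level of 0.653 of WT (0.469 to 0.908, adjusted p = 0.0938) and 0.694 of WT (0.524 to 0.926, adjusted p = 0.0977, exact binomial tests). Slc35a2, which encodes the UDP-galactose carrier of the Golgi, separated the genotypes more cleanly, with 39 reads (18.6 RPM) in WTSC, 26 (17.8 RPM) in WTTTC, 27 (10.1 RPM) in LTNSC and 36 (9.85 RPM) in LTNTTC. Libraries of the same genotype differed by at most 0.06 on the log2(RPM + 1) scale. KO was 1.84-fold lower in the SC pair (ratio 0.543, 0.320 to 0.910) and 1.81-fold lower in the TTC pair (0.553, 0.325 to 0.954), which did not pass after adjustment over all transcripts (adjusted p = 0.143 and 0.166, exact binomial test). In the additive model of genotype and code fitted with limma, its genotype difference was -0.81 ± 0.30 (SE), with adjusted p = 0.594.

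In all, both KO libraries lay below both WT libraries for 10 of the 38 genes at 5 RPM (26.3%), against 20.4% of all 2314 transcripts at that level. These were Slc16a1, Slc25a17, Slc29a4, Slc32a1, Slc35a2, Slc39a6, Slc3a2, Slc6a17, Slc7a4 and Slc7a5. The opposite order held for Slc37a3 alone (2.63%, against 13.1% of all transcripts), a relative of the sugar phosphate carriers with 4.77 RPM in WTSC, 4.11 in WTTTC, 10.5 in LTNSC and 5.47 in LTNTTC. With median-of-ratios scaling 7 of the 10 stayed below (15.8% of all transcripts), Slc16a1 (a monocarboxylate carrier), Slc25a17 and Slc39a6 (a zinc carrier) having dropped out, and with libraries rescaled to the same sum those 7 were joined by Slc1a2 (18.2% of all transcripts). The margins of the 3 that dropped out were small. Slc39a6 had 7.63 RPM in WTSC, 7.53 in WTTTC, 6.36 in LTNSC and 7.39 in LTNTTC.

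Few genes passed a threshold between KO and WT. At least 2-fold in log2(RPM + 1) with a mean of 5 RPM, the SC pair held 1 lower gene (Slc32a1, 6.83% of all transcripts) and 1 higher gene (Slc1a1, 2.98% of all), or 2 of 38 against 9.81% of all, and the TTC pair held none in either direction (4.67% lower and 5.27% higher, or 9.94% of all). The median difference over the 38 genes was -0.121 (SC pair) and -0.103 (TTC pair), beside -0.105 and -0.047 over all transcripts at 5 RPM. The medians of all transcripts moved to 0.022 and 0.006 with median-of-ratios scaling, so that a median difference of this size depends on the scaling. Slc32a1 was no longer 2-fold lower under that scaling.

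The read test passed 7 of 94 genes in the SC pair (7.45%, against 7.38% of all transcripts) and 4 of 98 in the TTC pair (4.08%, against 7.54%). No gene passed in both pairs (0.887% of all transcripts lower and 0.578% higher). In the SC pair Slc1a2, Slc25a20, Slc45a1 and Slc4a10 were lower (4.74% of all) and Slc1a1, Slc29a3 and Slc38a3 were higher (2.63% of all). In the TTC pair Slc12a4, Slc35e4 and Slc38a2 were lower (4.41% of all) and Slc36a1 was higher (3.14% of all). Of these 11 calls, 9 lay at genes with a mean under 5 RPM, all but Slc1a1 and Slc1a2. The test of a different genotype effect in the 2 pairs passed 0 of 78 genes (3.96% of all transcripts).

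Several of the calls at low levels came from 1 library each. Slc25a20, the carnitine and acylcarnitine carrier of mitochondria, had 13 reads (6.2 RPM) in WTSC and 0 in the other libraries, at least 5.53-fold lower in LTNSC (adjusted p = 0.00113, exact binomial test). Slc29a3, a lysosomal nucleoside carrier, had 15 reads in LTNSC alone, at least 3.92-fold higher than WTSC (adjusted p = 0.00742, exact binomial test). Slc36a1, the lysosomal proton-coupled amino acid carrier PAT1, had 22 reads in LTNTTC alone, at least 2.93-fold higher than WTTTC (adjusted p = 0.0244, exact binomial test). Slc12a4, the potassium chloride cotransporter KCC1, had 9 reads in WTTTC alone, at least 7.51-fold lower in LTNTTC (adjusted p = 7.53e-04, exact binomial test). With Slc25a39 (8 reads in LTNTTC), 5 of the 110 solute carriers with any read had 8 or more reads in 1 library and none in the others (4.55%), as had 2.7% of all transcripts.

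Other calls had reads in more than 1 library. Slc38a3, which encodes the glutamine carrier SNAT3, had 0 reads in WTSC, 5 (3.42 RPM) in WTTTC, 20 (7.48 RPM) in LTNSC and 24 (6.57 RPM) in LTNTTC. With 3 reads in place of 0 in WTSC, KO was 5.23-fold higher in the SC pair (adjusted p = 6.23e-04, exact binomial test). In the TTC pair KO was 1.92-fold higher (0.717 to 6.43, adjusted p = 0.569, exact binomial test). Both KO libraries of Slc38a3 were above both WT libraries. Slc38a2, the related carrier SNAT2, pointed the other way, with 2.86, 6.16, 1.5 and 1.09 RPM in WTSC, WTTTC, LTNSC and LTNTTC (adjusted p = 0.717 in the SC pair, 0.0419 in the TTC pair, exact binomial test). Slc4a10, a sodium bicarbonate carrier of neurons, had 22 reads in WTSC, 4 in WTTTC, 7 in LTNSC and 12 in LTNTTC, and Slc45a1, a proton-linked sugar carrier, had 15, 3, 1 and 4, so that for both WTSC stood above the rest (adjusted p = 0.0137 and 0.00187 in the SC pair, exact binomial test). Slc35e4, a nucleotide sugar carrier relative, had 0, 8, 3 and 2 reads (adjusted p = 0.0223 in the TTC pair, exact binomial test).

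**Figure D4:**
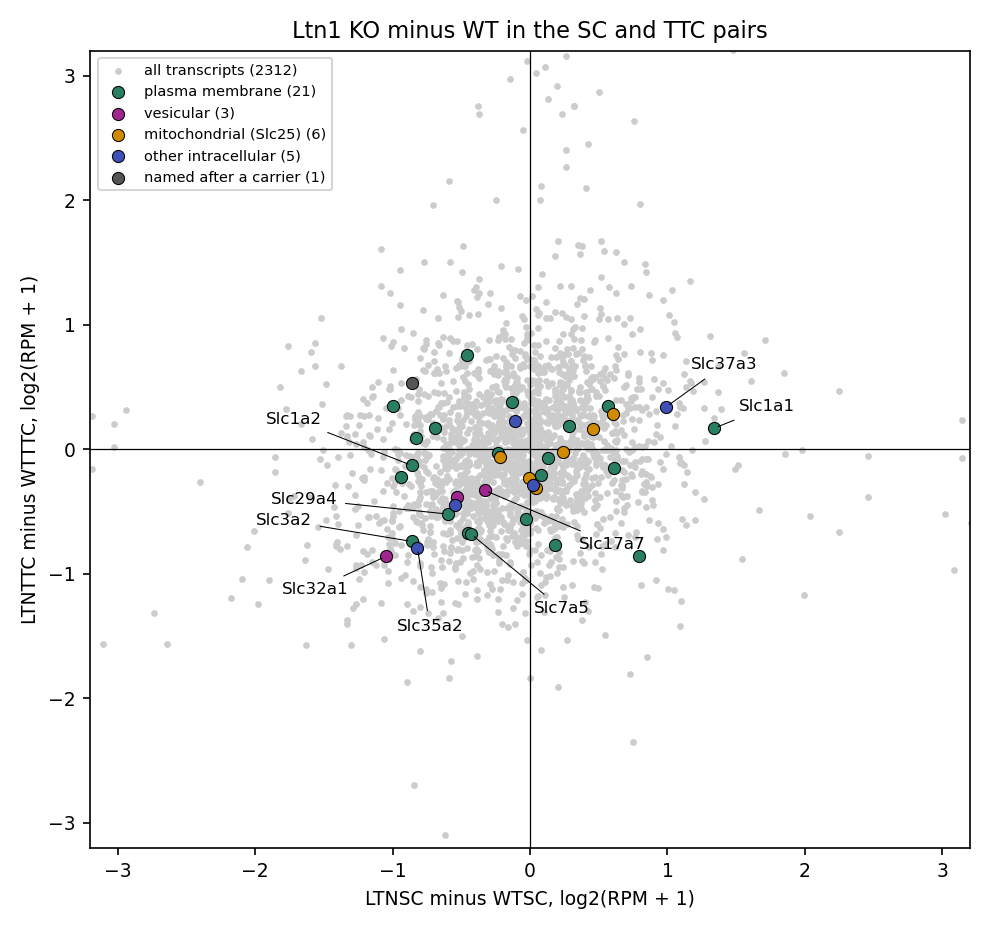
KO minus WT difference in log2(RPM + 1) in the SC pair (horizontal) and the TTC pair (vertical) for 36 of the 38 solute carrier genes at a mean of at least 5 RPM, coloured by class, over 2312 transcripts at that level in grey (26 lie outside the axes). Of all 38 genes, 16 were lower in both pairs, 7 were higher in both and 15 differed in sign.

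The pairs share no library, and for the 38 genes their KO differences had a Pearson correlation across genes of 0.22 and a Spearman correlation of 0.19, beside 0.19 and 0.19 over all transcripts. Genes are not independent replicates, and the points share library depth. In both pairs 16 of the 38 genes were lower and 7 higher. The additive model in limma, with 1 residual degree of freedom, called 0 of 81 solute carriers for genotype and 0 of 4548 transcripts at a mean of at least 1 RPM (0% of all), with 6 and 373 at an unadjusted p under 0.05. The edgeR quasi-likelihood test on the recovered reads also called 0, with 3 solute carriers at an unadjusted p under 0.05.

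The Slc25 carriers had the most even summed level of the classes, although single members differed between codes. Their summed level was 431.3 RPM (403.6 to 460.3) in WTSC, 477.9 (443.1 to 514.8) in WTTTC, 468.4 (442.8 to 495.0) in LTNSC and 471.0 (449.0 to 493.8) in LTNTTC, and every pair of libraries had overlapping intervals. The 6 genes at 5 RPM, Slc25a3, Slc25a4, Slc25a5, Slc25a12, Slc25a17 and Slc25a22, held 40.9 to 47.1% of all solute carrier reads in a library. None of the 6 passed the read test between KO and WT in either pair, with differences from -0.31 to 0.60. Between the KO libraries, 5 of 14 tested members of the class passed (35.7%, against 16.6% of all transcripts), in opposite directions. Slc25a3 and Slc25a12 were lower in LTNTTC (adjusted p = 0.00901 and 0.00944, exact binomial tests), and Slc25a4, Slc25a5 and Slc25a25 were higher. The read test passes more readily at sites with many reads, and the share over all transcripts covers sparse sites as well. By the 2-fold rule at a mean of 5 RPM, 0 of 6 Slc25 genes passed between the KO libraries (12.8% of all transcripts).

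Slc25a3 (chromosome 10, 91116574 to 91124046), the phosphate carrier, had 254 reads (121.2 RPM) in WTSC, 167 (114.4 RPM) in WTTTC, 383 (143.3 RPM) in LTNSC and 413 (113.0 RPM) in LTNTTC. KO was at 1.18 of WT in the SC pair (1.01 to 1.39, adjusted p = 0.228) and at 0.988 in the TTC pair (0.823 to 1.19, adjusted p = 1, exact binomial tests). Slc25a4 and Slc25a5 encode the ADP/ATP carriers ANT1 and ANT2. Slc25a4 had 99.7, 132.2, 85.3 and 126.4 RPM and Slc25a5 had 30.5, 58.2, 46.8 and 70.9 RPM in WTSC, WTTTC, LTNSC and LTNTTC, so that for both the TTC libraries were the highest. Slc25a4 and Slc25a5 are related genes whose sequences were not compared here. How reads that fit both were placed is not given in the sources used here, and the values of both genes are uncertain to that extent.

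Slc25a12 and Slc25a22 serve mitochondrial aspartate and glutamate exchange and glutamate entry. Slc25a12 had 39.6, 32.9, 55.0 and 36.9 RPM in WTSC, WTTTC, LTNSC and LTNTTC, and Slc25a22 had 44.8, 46.6, 46.0 and 37.5 RPM. Slc25a17 had 81.6, 81.5, 81.2 and 69.5 RPM, with 3 libraries level and LTNTTC lower (adjusted p = 0.479 in the TTC pair, exact binomial test). The other 9 members of the class had means from 0.547 RPM (Slc25a39) to 3.90 RPM (Slc25a11, the oxoglutarate carrier). They include the citrate carrier Slc25a1 with 1, 1, 7 and 3 reads in that order, the calcium-regulated ATP-Mg/phosphate carriers Slc25a23 and Slc25a25, and Slc25a14, Slc25a33 and Slc25a46, each with 0 to 6 reads per library apart from 19 for Slc25a25 in LTNTTC.

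The outer membrane pores and import receptors, through which carrier substrates and precursors pass, had 6 of 14 listed genes measured. Vdac1 alone passed, lower in KO in the SC pair with 62.5 RPM in WTSC and 38.9 RPM in LTNSC (adjusted p = 0.00793, exact binomial test), beside 54.8 RPM in WTTTC and 43.0 RPM in LTNTTC (adjusted p = 0.339). Of the 6 Na/K-ATPase subunits measured, Atp1b1 was lower in KO in both pairs, with 545.3 RPM in WTSC, 724.4 in WTTTC, 460.5 in LTNSC and 517.8 in LTNTTC (adjusted p = 0.00188 and 1.46e-14, exact binomial test). The chaperones and regulators of carriers had 10 of 12 listed genes measured and 0 passed between KO and WT. Of 2 Slco organic anion carriers, Slco1c1 was lower in the SC pair (adjusted p = 0.0346, exact binomial test) with 14, 7, 3 and 19 reads in WTSC, WTTTC, LTNSC and LTNTTC.

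More solute carriers passed the read test between TTC and SC libraries than between KO and WT, and LTNSC and LTNTTC were the deepest libraries. The read test passed 20 of 101 genes between the KO libraries (19.8%, against 16.6% of all transcripts), 14 higher in LTNTTC (10.9% of all) and 6 lower (5.71% of all). Between the WT libraries it passed 10 of 96 (10.4%, against 10.8% of all), 8 higher in WTTTC (7.02% of all) and 2 lower (3.82% of all). These comparisons use the same 4 libraries as the genotype pairs. Among the genes that passed with TTC higher in both genotypes were Slc1a1, Slc25a4, Slc25a5 and Slc9a8, a sodium proton exchanger of the Golgi.

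Of these, Slc1a1 was 1.57-fold higher in LTNTTC than in LTNSC (1.15 to 2.18, adjusted p = 0.0281) and 3.80-fold higher in WTTTC than in WTSC (2.13 to 7.08, adjusted p = 5.2e-05, exact binomial tests). For Slc25a5 the ratios were 1.52 (1.22 to 1.89) and 1.91 (1.36 to 2.68), and for Slc25a4 they were 1.48 (1.26 to 1.74) and 1.33 (1.08 to 1.62). All 4 members of the Slc1 family at 5 RPM, Slc1a1, Slc1a2, Slc1a3 and Slc1a4, were higher in TTC in both genotypes, Slc1a2 and Slc1a4 passing in KO alone and Slc1a3 in neither, and with median-of-ratios scaling Slc1a3 turned from 0.14 to -0.01 in KO. The sum of the Slc1 family was 76.3 RPM (65.0 to 89.1) in WTSC and 62.9 (53.7 to 73.1) in LTNSC, against 113.0 (96.4 to 131.6) in WTTTC and 108.3 (97.9 to 119.5) in LTNTTC.

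Markers of GABAergic neurons, of glia and of neurons in general moved beside these carriers. Gad1, which makes GABA, had 15.7 RPM in WTSC, 35.6 in WTTTC, 8.6 in LTNSC and 27.9 in LTNTTC, and was higher in TTC in both genotypes (adjusted p = 1.22e-06 in KO and 0.00483 in WT, exact binomial test). The 4 markers of these cells, Slc32a1 among them, summed to 33.4 RPM in WTSC, 65.1 in WTTTC, 21 in LTNSC and 54.4 in LTNTTC. The astrocyte markers summed higher in TTC as well, and the 5 oligodendrocyte markers measured summed to 36.7, 60.9, 10.8 and 35.8 RPM in WTSC, WTTTC, LTNSC and LTNTTC. Of the 6 markers of neurons in general, Rbfox3 was higher in TTC in both genotypes (adjusted p = 0.033 in KO and 0.0119 in WT, exact binomial test). Tubb3 was lower in LTNTTC (adjusted p = 1.59e-10), and Syt1 and Stmn2 were lower in WTTTC (1.57e-05 and 0.00876, exact binomial tests). Map2 and Snap25 passed in neither genotype. What each type of cell contributed to the carrier differences was not tested.

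Other carriers went the other way or passed in 1 genotype. Both TTC libraries lay above both SC libraries for 13 of the 38 genes (34.2%, against 29.3% of all transcripts) and below for 8 (21.1%, against 15.9%). Among the 8 were Slc12a5, Slc17a7, Slc24a2, Slc25a12, Slc25a3, Slc39a10 and Slc8a1, and with median-of-ratios scaling the counts were 12 above (22.8% of all transcripts) and 12 below (22.3%). Slc39a10, a zinc importer, had 35 reads (16.7 RPM) in WTSC, 5 (3.42 RPM) in WTTTC, 21 (7.86 RPM) in LTNSC and 17 (4.65 RPM) in LTNTTC, 4.88-fold lower in WTTTC (adjusted p = 0.00329) and 1.69-fold lower in LTNTTC (adjusted p = 0.361, exact binomial tests). Slc12a5, which encodes KCC2, the neuronal cotransporter that keeps chloride low, had 11.5 RPM in WTSC, 5.48 in WTTTC, 6.73 in LTNSC and 6.29 in LTNTTC, with WTSC above the rest and no test passed (adjusted p = 0.283 between the WT libraries and 0.352 in the SC pair, exact binomial test).

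A sugar carrier and an amino acid carrier, Slc2a1 and Slc7a8, passed between the KO libraries in opposite directions. Slc2a1, the glucose carrier GLUT1, had 4.77 RPM in WTSC, 4.79 in WTTTC, 8.98 in LTNSC and 2.19 in LTNTTC, 4.10-fold lower in LTNTTC than in LTNSC (adjusted p = 0.00316, exact binomial test) and level in WT. The neuronal glucose carrier Slc2a3 stayed within 2.99 to 6.16 RPM. Slc7a8, the light chain LAT2, had 4.77, 8.90, 2.25 and 9.57 RPM and was 4.27-fold higher in LTNTTC than in LTNSC (adjusted p = 0.00293, exact binomial test). Of genes at 5 RPM, Slc7a8, Slc1a4 and Slc7a6os were at least 2-fold higher (9.64% of all transcripts) and Slc2a1 lower (3.15%) between the KO libraries, and Slc1a1 was among those higher (9.51%) and Slc39a10 lower (6.91%) between the WT libraries.

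The calcium exchangers Slc8a1 and Slc8a2, which extrude calcium from neurons in exchange for sodium, passed in no comparison. Slc8a2 had 35.8, 37.0, 37.8 and 31.7 RPM in WTSC, WTTTC, LTNSC and LTNTTC, and Slc8a1 had 32.9, 18.5, 29.9 and 24.3 RPM, with WTTTC lowest (adjusted p = 0.0765 between the WT libraries, exact binomial test). For the code, limma called 0 of 81 solute carriers and 0 of 4548 transcripts, with 14 and 691 at an unadjusted p under 0.05. With edgeR the count was also 0, with 14 at an unadjusted p under 0.05. The differences between libraries were wider than counting error, since the mean squared Pearson residual over solute carriers with at least 20 reads was 1.80 in the TTC pair, 3.55 in the SC pair, 4.11 between the WT libraries and 5.34 between the KO libraries, where 1 is the value under counting error alone.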

How the data were processed

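Values were taken as deposited in RPM, the authors' normalization of footprints at translation initiation sites to the total reads of the library. The submitters' processing notes name Bowtie, SAMtools, bedtools and the build GRCm38 (mm10), without versions or settings, and the counting window is not given in the sources used here. Whole reads were recovered from the RPM steps (100% of values whole within 1e-06). Symbols came from the study's gene list, where 38 identifiers with an extra 0 were mended, that of Slc8a1 among them, and all 116 matched RefSeq (GRCm38.p6), which gave the positions. Members, classes, lists, tests and the rule for named genes were chosen with earlier results of these data known. The rule named all vesicular and Slc25 members, members past a threshold or with separated genotypes, key transporters, and the largest differences between codes, 4 each way. Results of some genes it covers are not reported here, though counts and sums include them.

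Differences were computed as log2(RPM + 1) with NumPy 2.4.6 and pandas 2.3.3. Reads were compared by two-sided exact conditional binomial tests (SciPy 1.17.1), with Benjamini-Hochberg adjustment over all transcripts with reads, at 0.05. These tests compare libraries, not conditions. Ratios have 95% exact intervals. An additive model of genotype and code was fitted with limma 3.58.1 to transcripts at a mean of at least 1 RPM, and with edgeR 4.0.16 on recovered reads. The binomial test, the test of the difference between the pairs and the genotype term of limma and edgeR were run on simulated counts. These counts had counting error alone, without the wider spread seen between the libraries. Depth was 1460425 to 3655827 reads, which sets the floor of 3 reads at 0.821 to 2.05 RPM.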

Additional observations from a re-analysis of the deposited data

How the results depend on the processing

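No paired analysis was possible because each condition had 1 library and the labels give no replicate numbers, and for the same reason no library could be left out of the model, which has 1 residual degree of freedom. The sequence context of the start codons was not run, since no genome was given. Of the alternatives, 80 left a count within 1.5 times its value or a median within its 95% interval from order statistics over genes (the whole range for the 5 vesicular genes), and 17 moved it further. The vesicular median in the SC pair was -0.332, with -0.195 under median-of-ratios scaling and -0.534 over the genes at 5 RPM. The number of solute carriers past 2-fold depended on the filter. In the SC pair it was 2, and became 1 at a mean of at least 10 RPM, 22 with no filter and 7 with a pseudocount of 0.1 RPM. In the TTC pair it was 0, and became 20 with no filter and 1 with a pseudocount of 0.1 RPM. Between the KO libraries it was 4, and became 1 at 10 RPM and 27 with no filter, and between the WT libraries it was 3, and became 28 with no filter and 5 with a pseudocount of 0.1 RPM. Without a filter, genes with 0 reads in 1 library enter by construction. With only transcripts at 5 RPM tested, which removes the genes at low levels, the read test passed 3 in place of 7 in the SC pair, 0 in place of 4 in the TTC pair, 13 in place of 20 between the KO libraries and 5 in place of 10 between the WT libraries. Both KO libraries lay below both WT libraries for 20 genes with no filter (14% of all transcripts) in place of 10, and above for 10 with no filter (12.4% of all) and 0 at 10 RPM (14.1% of all) in place of 1. The median difference over all 116 genes in the SC pair was 0.000, with many genes at 0 reads in both libraries, and -0.121 over the 38 at 5 RPM. Scaling left the counts of the read test within 1.5 times (10 in place of 7 in the SC pair with median-of-ratios factors) and turned the sign of 5 of the 38 genes (SC pair) and of 2 (TTC pair), each of which had differed by 0.13 or less. The limma and edgeR counts of solute carriers stayed at 0 for genotype and code under every filter, pseudocount and scaling run, and over all transcripts limma called 1 of 2314 for the code with the filter at 5 RPM. A site with 0 reads may still hold up to the floor of 3, which limits what can be said of the 78 genes under 5 RPM.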

Other observations

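Slc7a11, the cystine exchanger gene left out of the rule, had 12 reads in WTSC, 0 in WTTTC, 19 in LTNSC and 0 in LTNTTC, so that its reads were in the SC libraries alone. Slc36a4, a plasma membrane amino acid carrier, had the same layout, with 7 reads in WTSC, 0 in WTTTC, 9 in LTNSC and 0 in LTNTTC, and passed the exact binomial test between the KO libraries (adjusted p = 0.00512) and not between the WT libraries (adjusted p = 0.217). The reverse layout held for Slc9a8, the Golgi sodium proton exchanger, with 0 reads in WTSC, 7 in WTTTC, 0 in LTNSC and 10 in LTNTTC, and for Slc17a6. These genes were chosen after their values were seen.

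The differences between codes can be set beside those between genotypes. Over the 38 genes at 5 RPM, TTC minus SC had the same sign in KO and WT for 30 genes (11 lower and 19 higher, 78.9%), beside 64.1% of all transcripts, and the Pearson correlation across genes was 0.58 (Spearman 0.72), beside 0.44 (0.39) over all transcripts. KO minus WT had the same sign in both pairs for 60.5% of the genes, beside 57.5% of all transcripts. Genes are not independent replicates, each set of differences rests on 2 libraries, and the difference between the shares was not tested.

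Both chloride cotransporters with reads were high in 1 WT library each, Slc12a5 in WTSC with 11.5 RPM and Slc12a4 in WTTTC with 9 reads, and Slc12a2 (NKCC1), the importer that opposes KCC2, had 0 reads in all 4 libraries.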
